A study of Mus musculus with 20 samples.

Results

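Vaspin (Serpina12) and 9 other clade A serpins were followed in mouse liver: Serpina6, Serpina7, Serpina10, Serpina11, Serpina3c, Serpina3g, Serpina3k, Serpina3m and Serpina3n. Serpina12 was taken up because an earlier analysis of these same arrays had shown it to differ between the groups, and the 9 others because they belong to its family. All 10 genes were found on the array by their current symbols, with 12 probes among 41174, and all 10 passed the filter on dim probes that left 17197 genes and unnamed probes for testing. The mice were males of the inbred strain C57BL/6J that received a diet with 60% of calories from fat once weaned and were 6 weeks old at collection. Of the 20 livers, 10 (responders) carry a label of response to diet-induced obesity and 10 (non-responders) a label of resistance to it. Both groups ate the same diet, no lean or chow-fed group enters the comparison, and how response was scored is not stated in the sources used here. The question put to these genes is how far their liver RNA differed between mice that did and did not respond to the fattening diet.

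Serpins are proteins that inhibit proteases by a suicide mechanism, in which the protease cuts an exposed loop and is trapped by the refolding serpin, although some members have lost inhibition and carry hormones instead. Clade A holds the secreted plasma serpins, many of which are made by hepatocytes. Vaspin was first described in visceral fat of obese rats, inhibits the kallikrein Klk7 and has been studied as an adipokine that improves insulin sensitivity. In mice the Serpina3 genes are an expanded cluster that corresponds to a single human gene, the one for alpha-1-antichymotrypsin.

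One single-colour Agilent array was hybridised per liver, and the arrays fell into 2 slide series scanned on separate days, with 6 non-responders and 4 responders in the first and 4 non-responders and 6 responders in the second. Signal is given as log2 relative to the 75th percentile of the array, so that 0 is the signal that 75% of spots do not exceed, and differences are responder minus non-responder fitted with a term for slide series. Between 55.8% and 71.2% of spots were well above background on an array, and no spot was saturated. Nothing in the labels tells separate animals from repeated samples, so a p-value here speaks only of the spread among these 20 samples, which may be technical. Hepatocyte markers were strong on every array, with a mean log2 level between 6.86 and 7.89. Markers of other tissues varied widely: the mean level of 10 pancreatic acinar genes ran from -5.50 to 5.50 in responders and from -4.52 to 5.50 in non-responders, and the mean of 6 adipose genes from -2.09 to 0.29 and from -1.61 to 1.79. In whole liver, fewer cells of a type and less RNA per cell cannot be told apart.

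The vaspin measurement rests on 1 probe of 60 bases, annotated on the minus strand of chromosome 12 from 105267099 to 105267158 (mm9). Probes of the other chromosome 12 members lie between 104853280 (Serpina10) and 105651977 (Serpina3n) in the same build. The place of the vaspin probe within the exons, coding or not, was not analysed here. Its first 30 bases are shown as a part of the sequence by which vaspin RNA was measured.
Serpina12 probe: gtacaatattttcccaggatagttaacaag
Between probes of different members the longest shared run was 9 bases, and the closest pair, those of Serpina3c and Serpina3k, matched at 26 of 60 positions in the best ungapped alignment. The promoter of the gene, the 250 bases before its RefSeq start, lies at chr12:104044444-104044693 on the minus strand of GRCm38.p6. The capitals mark a match to the C/EBP motif TTGCNNAA.
Serpina12 promoter: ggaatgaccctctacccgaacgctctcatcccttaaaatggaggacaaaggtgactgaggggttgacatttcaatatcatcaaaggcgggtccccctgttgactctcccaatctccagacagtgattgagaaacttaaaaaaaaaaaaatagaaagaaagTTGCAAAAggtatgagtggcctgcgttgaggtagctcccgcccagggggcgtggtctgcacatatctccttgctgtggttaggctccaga
That match lies 90 to 83 bases before the start, and 9.56% of the 32851 promoters in the RefSeq table hold the motif on either strand within the same length.

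Vaspin RNA was higher in the responder livers. Responders had a mean signal of -1.47 ± 0.39 (SD, n = 10), against -2.21 ± 0.29 for non-responders (SD, n = 10). The responders ran from -2.06 through a median of -1.42 to -0.96. The non-responders ran from -2.73 through a median of -2.13 to -1.70. The groups overlapped: 7 of 10 responders lay above the highest non-responder, and all 10 lay above the non-responder median. The fit put responders 0.73 higher (SE 0.16; 95% interval 0.41 to 1.05), a ratio of 1.66 (95% interval 1.325 to 2.08). Since the gene was chosen for this difference, these values are a description and no test is attached to them.

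Both slide series showed the vaspin difference. Both belong to the arrays on which the gene was picked, so their likeness is a description and no independent repeat. In the first series the 4 responders had log2 signals of -1.99, -1.66, -1.48 and -1.32, and the 6 non-responders lay between -2.49 and -2.03, so that every responder was above every non-responder. In the second series the 6 responders had -2.06, -1.74, -1.36, -1.13, -0.97 and -0.96, and the 4 non-responders had -2.73, -2.40, -2.33 and -1.70. One non-responder of that series therefore stood above 2 of its responders. Taken alone, the first series gave a difference of 0.54 (SE 0.14), and the second gave 0.92 (SE 0.26). The probe was well above background on all 20 arrays.

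**Figure D1:**
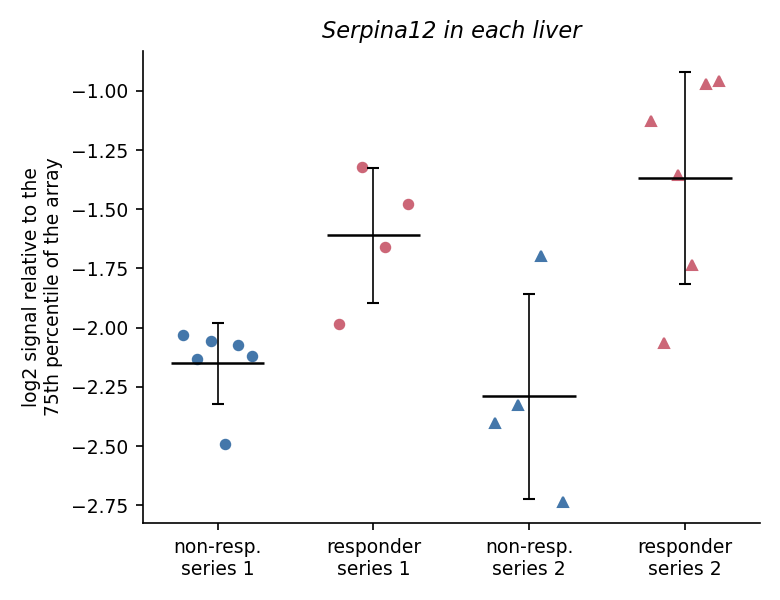
Serpina12 signal in each of 20 livers (log2 relative to the 75th percentile of the array), by group and slide series; points are livers, horizontal bars the mean and error bars the SD. Responders centre on -1.61 and -1.37 in the first and second series, non-responders on -2.15 and -2.29.

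Most of the measured fat-cell markers were lower in responders. Of 6 adipose genes well above background on at least 5 arrays in each group, 5 were lower in responders. At an unadjusted p under 0.05, 4 of them were called lower, beside 3.73% of all genes. None was called at an adjusted p under 0.05 (limma, Benjamini-Hochberg over all genes). Plin1, which coats lipid droplets, and Retn, the adipokine resistin, passed the filter on dim probes through non-responders alone, with well-above-background signal in 3 and 2 responders against 8 and 6 non-responders, and are not counted. Adipoq, the adipokine adiponectin, differed by -1.37 (SE 0.58), and Fabp4, a fatty acid carrier of adipocytes and macrophages, by -0.53 (SE 0.20). The part of fat-cell RNA in the vaspin signal was not tested.

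Klk7, the protease that vaspin inhibits, was close to background and stood well above it in 5 responders and 3 non-responders, so no difference is given. Hspa5, the chaperone to which vaspin binds at the cell surface, differed by -0.12 (SE 0.15). These 2 genes were named for that role after their values were seen. Of 15 proteases and partners of the 10 serpins well above background on at least 5 arrays in each group, 10 were higher and 5 lower. Klk7 and Cma1 passed the filter on dim probes through responders alone and are not counted. The median difference of the 15 was not computed. That of all 17 measured genes was 0.01, but it includes these 2 and is not set against all genes. Klkb1, plasma prekallikrein, had the smallest p of the list, with a difference of 0.15 (SE 0.07) and an adjusted p of 0.607 (limma); Lrp1, a receptor that clears serpin-protease complexes, differed by 0.13 (SE 0.07), and Proz, which encodes protein Z, by 0.12 (SE 0.07).

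Among the 9 other clade A serpins, no member changed past the threshold. At an adjusted p under 0.05, 0 of 9 were called, where 0% of all 17197 genes and unnamed probes were called. At an unadjusted p under 0.05, 0 of 9 were called, beside 7.98% of all genes; 4 of 305 values under other settings passed it, all of them of Serpina10. Of the 9, 6 were higher and 3 lower in responders (normexp background correction turned 5 of the 6 lower), 0 of them past the unadjusted threshold in either direction, beside 4.25% of all genes called higher and 3.73% called lower. The median difference of the 9 was 0.03. All 9 of the 95% intervals included 0, which does not show that the groups were alike: the interval of Serpina7 runs to 0.89 and that of Serpina6 to -0.68.

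The 2 hormone carriers of the family lay in opposite directions and varied much between livers. Serpina6 encodes corticosteroid-binding globulin, the plasma carrier of glucocorticoids. Its signal ran from 4.40 through a median of 4.85 to 5.69 in responders and from 4.32 through 5.19 to 5.90 in non-responders. All 10 responders fell within the non-responder range, and 2 of them lay above the non-responder median. Serpina6 differed by -0.23 (SE 0.22; 95% interval -0.68 to 0.23; limma adjusted p = 0.807). Serpina7, on the X chromosome, encodes thyroxine-binding globulin, the carrier of thyroid hormone. Its signal was low, running from -3.10 through -2.31 to -0.94 in responders and from -4.39 through -2.32 to -1.48 in non-responders, where non-responder 1 was not well above background. Serpina7 differed by 0.21 (SE 0.32; 95% interval -0.46 to 0.89; limma adjusted p = 0.873). With group and series means removed, the SD between livers was 0.77 for Serpina7 and 0.51 for Serpina6, larger than in 95.8% and 88.3% of all genes tested.

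Serpina10 and Serpina11 were steadier. Serpina10 encodes the protein Z-dependent inhibitor of coagulation factor Xa. It ran from 1.41 through 1.69 to 1.92 in responders and from 1.30 through 1.52 to 1.80 in non-responders, and 4 of 10 responders lay above the highest non-responder. Responders were higher by 0.14 (SE 0.08; 95% interval -0.03 to 0.32), with a limma p of 0.0987 unadjusted and 0.690 adjusted. The unadjusted p was 0.0395 with the mean of both its probes, 0.0426 without responder 2 and 0.0466 without non-responder 4 (limma; adjusted p of 0.540 to 0.649). By slide series, the value was -0.0079 (SE 0.10) for the first and 0.29 (SE 0.12; unadjusted p = 0.0305, adjusted 0.711) for the second. The second probe of the gene gave 0.14 (SE 0.09). Serpina11, a secreted serpin of poorly known function, ran from 3.95 through 4.01 to 4.25 in responders and from 3.67 through 4.03 to 4.29 in non-responders, a difference of 0.03 (SE 0.07) with every responder inside the non-responder range.

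Within the Serpina3 cluster, Serpina3k and Serpina3m followed the slide series and not the group. Serpina3k encodes contrapsin, an abundant plasma inhibitor of trypsin-like proteases, and Serpina3m is its close relative. Serpina3k lay between 10.2 and 10.6 in all 10 livers of the first series and between 9.48 and 10.1 in all 10 of the second, and Serpina3m between 9.94 and 10.3 and between 9.31 and 9.77. Neither gene had overlapping series. The share of all genes with series that do not overlap was not computed, so this does not set the 2 genes apart. With group and series means removed, the SD of Serpina3k fell from 0.33 to 0.16. Outside the 10, that of Serpina1d fell from 0.29 to 0.14 and that of Agt from 0.16 to 0.13. The second series was lower by a fitted -0.57 (SE 0.07) for Serpina3k and -0.55 (SE 0.07) for Serpina3m. These values are relative to each array's 75th percentile of signal. That reference ran from 280 to 417 in the first series and from 413 to 657 in the second. The part of the reference in the shift was not tested. The group differences were 0.03 (SE 0.07) and 0.07 (SE 0.07), and without the series term they turned to -0.08 and -0.04; 6 of 10 responders lie in the second series. The other Serpina3k probe gave 0.16 (SE 0.12). A shift between slide series and a shift between the animals placed in them cannot be told apart.

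Serpina3c and Serpina3g were lower in responders and Serpina3n higher, none past the threshold. Serpina3c ran from 4.88 through 5.73 to 6.08 in responders and from 4.73 through 5.82 to 6.43 in non-responders, a difference of -0.07 (SE 0.23). Serpina3g, an intracellular inhibitor of cysteine cathepsins found in immune cells, ran from 2.35 through 2.71 to 2.99 in responders and from 2.49 through 2.86 to 4.35 in non-responders. Its difference was -0.21 (SE 0.17), with an adjusted p of 0.775 (limma), and the value shrank to -0.08 without non-responder 4, which held the 4.35. Serpina3n, an acute phase inhibitor of granzyme B and leukocyte elastase, ran from 4.45 through 4.69 to 5.25 in responders and from 4.32 through 4.52 to 5.24 in non-responders. The Serpina3n difference was 0.12 (SE 0.12), with 9 of 10 responders above the non-responder median, and by series it was -0.02 (first) and 0.25 (second).

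**Figure D2:**
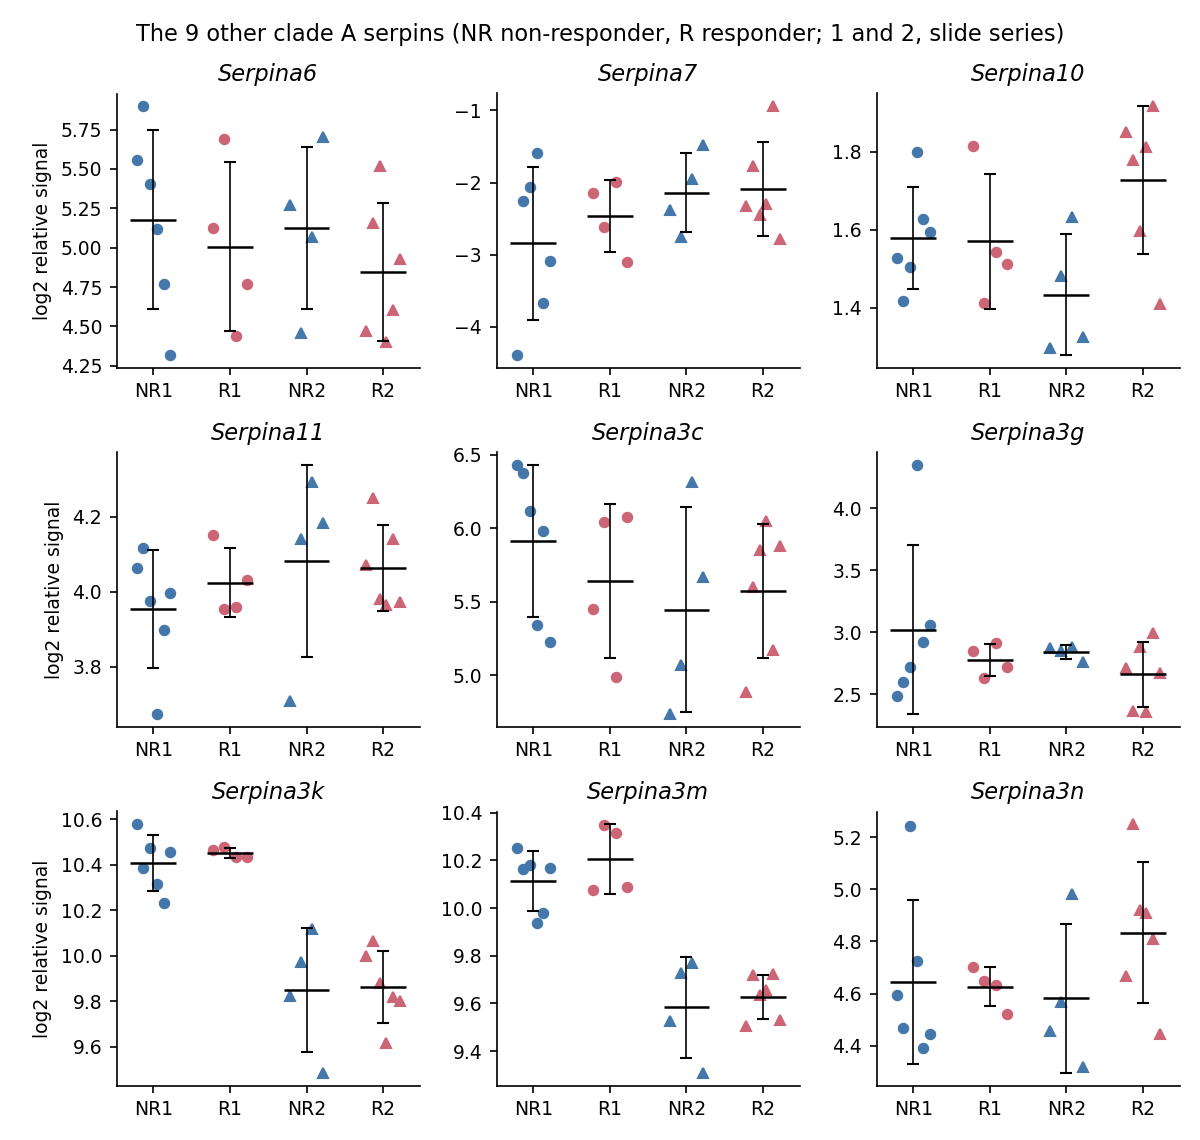
Signal of the 9 other serpins in each liver (log2 relative to the 75th percentile of the array), for non-responders (NR) and responders (R) of slide series 1 and 2; points are livers, horizontal bars the mean and error bars the SD. Serpina3k and Serpina3m separate by series, and 1 non-responder stands alone in Serpina3g at 4.35.

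Serpina3c and Serpina3n are shown side by side because their promoters are nearly the same. Over the 250 bases before each RefSeq start, 229 of 253 aligned positions were identical (90.5%), with 18 substitutions and 6 gap positions. The next closest pair among the 6 members with a promoter in the table reached 48.4%. Capitals mark the bases that differ or are absent from the other gene. The Serpina3c promoter is chr12:104153873-104154122 on the minus strand and that of Serpina3n is chr12:104406458-104406707 on the plus strand, both GRCm38.p6.
Serpina3c promoter: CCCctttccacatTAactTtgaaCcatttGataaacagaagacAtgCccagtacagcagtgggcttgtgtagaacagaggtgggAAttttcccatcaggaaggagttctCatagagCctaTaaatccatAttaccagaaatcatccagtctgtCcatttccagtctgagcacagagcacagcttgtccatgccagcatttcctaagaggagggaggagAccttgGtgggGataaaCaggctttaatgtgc
Serpina3n promoter: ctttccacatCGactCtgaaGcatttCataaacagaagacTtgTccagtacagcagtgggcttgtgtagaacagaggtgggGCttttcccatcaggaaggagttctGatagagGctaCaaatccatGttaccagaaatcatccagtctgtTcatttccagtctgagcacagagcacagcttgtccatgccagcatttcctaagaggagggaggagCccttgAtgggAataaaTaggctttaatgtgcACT
Both hold the glucocorticoid receptor core AGAACA, which 16.1% of all promoters hold on either strand, and Serpina3c alone also holds TATAAA (12.4% of all promoters) and the HNF1 core GTTAAT (6.43%). With group and series means removed, the 2 genes correlated at r = 0.22 over 20 livers (Spearman 0.12; permutation p = 0.410, adjusted p = 0.710 over 45 pairs), and at 0.03 and 0.37 within the first and second series. Without responder 4 and non-responder 7, the livers farthest from the Serpina3c median, r was 0.12. Among the correlations with all genes tested, the r over 20 livers stood at percentile 70.1 for Serpina3c and 78.0 for Serpina3n. The part of the promoters in this relation was not tested.

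Beyond the 10 members, 10 of 17 other clade A serpins on the list were measured, 6 higher and 4 lower in responders, none past the unadjusted or the adjusted threshold, with a median of 0.06. Nearest to Serpina12 in gene order on chromosome 12, Serpina9 differed by 0.15 (SE 0.20), Serpina4-ps1 by 0.43 (SE 0.39) and Serpina5, protein C inhibitor, by 0.08 (SE 0.34). Serpina1b, Serpina1c and Serpina1d, which encode alpha-1-antitrypsins, differed by 0.11, 0.04 and -0.0019, and since these genes are near-identical copies their probes may not tell them apart. Serpina3f, Serpina3i and Serpina3j differed by -0.12, -0.18 and 0.12, and Agt, the angiotensin precursor, by -0.02. Among 13 measured serpins of other clades 6 were higher and 7 lower, and the smallest p belonged to Serpinh1, a collagen chaperone, at -0.29 (SE 0.14; limma adjusted p = 0.638).

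**Figure D3:**
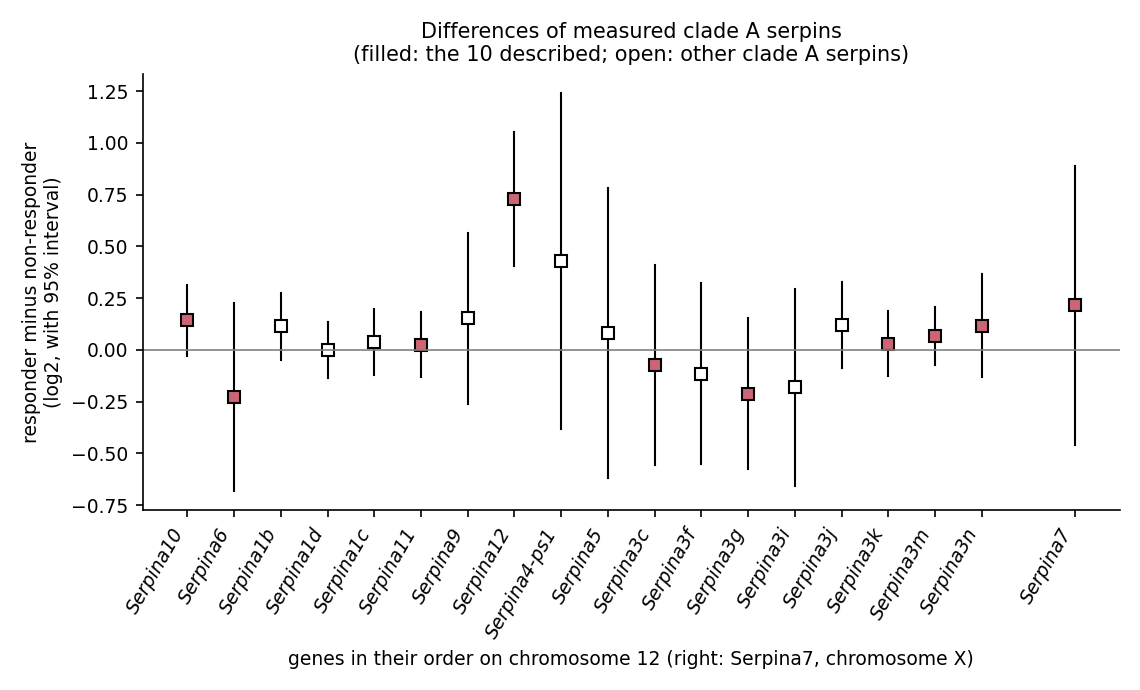
Responder minus non-responder difference (log2, squares) with its 95% interval (lines) for the measured clade A serpins on chromosome 12 in gene order, with Serpina7 of the X chromosome at the right; filled squares are the 10 described genes, open squares other clade A serpins. Serpina12, chosen for its difference, stands at 0.73, and the intervals of all other genes shown include 0.

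The difference between responders and non-responders was also compared between the slide series. At an adjusted p under 0.05, 0 of 9 members other than Serpina12 had an unequal difference, where 0% of all genes were called. At an unadjusted p under 0.05, 0 of 9 were called again, beside 9.67% of all genes. Serpina10 came closest, at 0.30 (SE 0.15; limma unadjusted p = 0.0645, adjusted p = 0.536). Outside the 10, the neighbour of Serpina12, Serpina4-ps1, had a difference of -0.80 (SE 0.37) for the first series and of 1.66 (SE 0.37) for the second (limma unadjusted p = 0.000289, adjusted p = 0.345), and this gene was singled out after its value was seen.

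Within groups, no pair of the 10 serpins passed a test of correlation. Each gene's signal was freed of the mean of its group within its slide series, and all 45 pairs were correlated over 20 livers by permutation within those 4 sets. None passed Benjamini-Hochberg adjustment by Pearson or Spearman correlation, where the smallest adjusted p was 0.199 and 0.162, and 6 and 4 pairs had an unadjusted p under 0.05. Serpina3k and Serpina3m had the highest correlation, r = 0.65 (Spearman 0.64; permutation p = 0.00886, adjusted 0.199), with 0.69 and 0.67 in the 2 series and 0.58 without responder 7 and non-responder 10. Serpina3c and Serpina3g had the lowest, r = -0.50 (Spearman -0.57; permutation p = 0.00632, adjusted 0.199), with -0.67 and -0.28 in the series and -0.56 without responder 4 and non-responder 7. Serpina6 and Serpina3c gave r = 0.52 (adjusted permutation p = 0.373), which fell to 0.39 without non-responders 2 and 6. Each r was also ranked among the correlations of either gene with all genes tested. Serpina3k with Serpina3m stood at percentiles 99.0 and 98.9, Serpina3c with Serpina3g at 5.6 and 4.05, and Serpina6 with Serpina3c at 91.5 and 90.0. The share of all gene pairs with an unadjusted p under 0.05 was not computed.

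No correlation of vaspin with a relative passed adjustment. Its 9 correlations ran from -0.24 with Serpina7 to 0.35 with Serpina3m, and all 9 had adjusted permutation p-values of 0.572 or more. Serpina3k followed at 0.34, Serpina3c at 0.22 and Serpina11 at 0.08. With Serpina3g the pooled value of -0.05 combined a first-series r of -0.67 with a second-series r of 0.71, and with Serpina10 the pooled -0.16 combined -0.89 and 0.14.

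**Figure D4:**
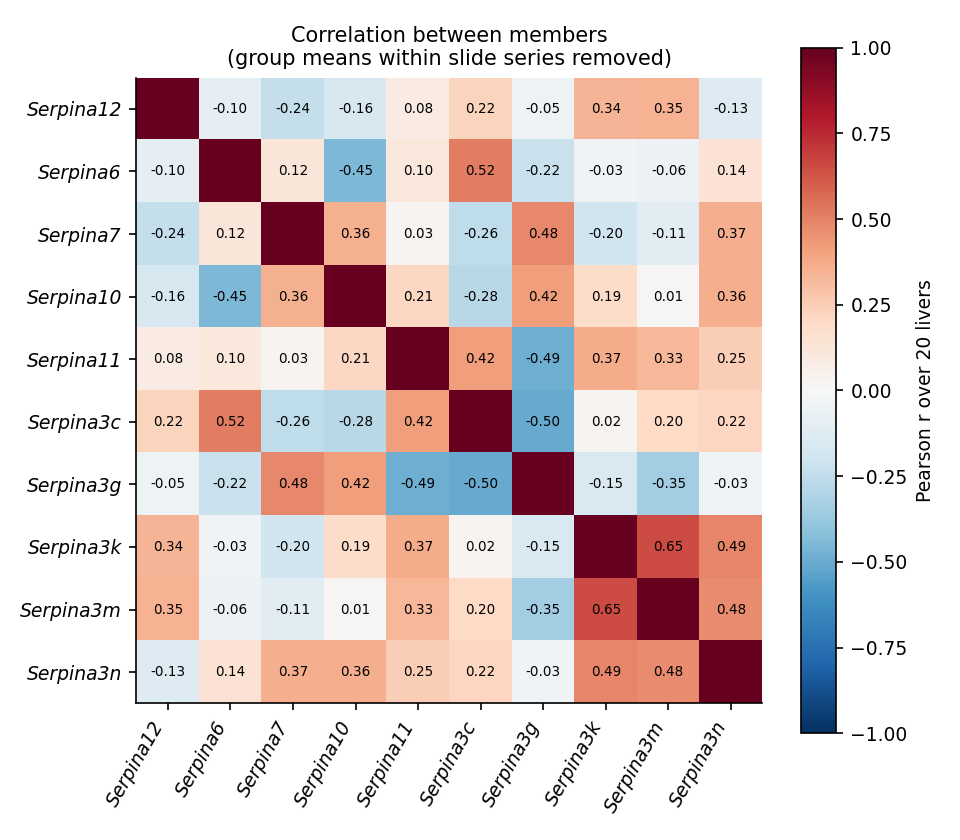
Pearson correlation over 20 livers between the 10 serpins after the mean of each group within each slide series was removed; colour and printed value give r. The highest pair is Serpina3k with Serpina3m at 0.65 and the lowest Serpina3c with Serpina3g at -0.50, and no pair passed adjustment.

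The genes whose liver-to-liver pattern was most like that of each member were picked by the highest r over 20 livers with group and series means removed, and are given as a description. For Serpina12 they were Cfhr2 at 0.71, Cul5 at 0.70, Dip2b at 0.69, Atad2b, Selenbp2, Mib1 and Mb21d2 at 0.68 and Ccl7 at 0.67, and the lowest were Mknk1 at -0.73, Man1c1 at -0.72, Plekhg5 and Dok1 at -0.70. Cfhr2 encodes a complement factor H-related protein, Cul5 a ubiquitin ligase scaffold and Mib1 a ubiquitin ligase of Notch ligands. Ranking by Spearman correlation kept 2 of the 8 highest and 0 of the 4 lowest. Across 13523 named genes ranked, the middle 90% of correlations with Serpina12 lay between -0.37 and 0.39.

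For the other members the top correlations were higher, and for all of them the correlations with all genes also spread more widely: the 95th percentile of r was 0.39 for Serpina12, 0.61 for Serpina6, 0.66 for Serpina3c, 0.55 for Serpina3g and between 0.44 and 0.51 for the rest. For Serpina6 they were Gys2, the liver glycogen synthase, at 0.94, Slc25a11, the mitochondrial oxoglutarate carrier, at 0.92, and Fdx1, an electron carrier of mitochondrial P450 enzymes, at 0.92. For Serpina10 they were Fgl1, a hepatocyte-derived fibrinogen-like protein, at 0.92, and the acute phase genes Lbp and Saa2, both at 0.84. Serpina3c ran with the carboxylesterases Ces2f at 0.94 and Ces1b at 0.93 and with the keratin gene Krt16 at 0.94. Serpina3g ran with Tgtp1, an interferon-induced GTPase, at 0.94, the chemokine gene Ccl24 at 0.91 and its neighbour Serpina3f at 0.90. Those 3 values were higher in the first series, which holds non-responder 4: they were 0.97, 0.96 and 0.98 there and 0.68, 0.67 and 0.53 in the second.

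Serpina3k was most like Cyp2d9, a P450 gene, at 0.90, the glutathione transferase gene Gstp1 at 0.85 and Cyp2d26 at 0.85. Serpina3m was most like Lamp2, a lysosomal membrane protein, at 0.88, Slc35b1 at 0.87 and Prox1, a hepatocyte and lymphatic transcription factor, at 0.87. Serpina3n was most like Hars, the histidyl-tRNA synthetase gene, at 0.79, Saa4, a serum amyloid A gene, at 0.78 and Phf11d at 0.77. Serpina7 was most like Fblim1 at 0.81, Col4a2, a basement membrane collagen, at 0.80 and Uap1l1 at 0.78. Serpina11 was most like Abcd4, a lysosomal cobalamin transporter, at 0.79, C8a, a component of the complement attack complex, at 0.75 and Man2b2 at 0.74.

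Each member was then set against the mean level of 3 gene lists, a step added after the data were seen. The lists were 26 acute phase genes, 18 measured interferon response genes and 18 measured genes of hormone carriage and of glucocorticoid or thyroid response. Genes were not scaled before the mean was taken, so the most variable genes weigh most in it. With group and series means removed, the SD was 1.14 for Saa1 but 0.24 for Hp among acute phase genes. In the hormone list it was 1.60 for Per1 but 0.13 for Hsd11b1. Of 30 relations, 6 passed Benjamini-Hochberg adjustment by Pearson correlation, and 3 of these also passed by Spearman correlation and without the 2 livers farthest from the list median. The share of all genes that would pass against the same lists was not computed. The count therefore does not set these members apart from other genes. Lbp and Saa2, named above as most like Serpina10, and Saa4, named for Serpina3n, are themselves among the acute phase genes. Serpina10 varied with the acute phase genes, r = 0.77 over 20 livers (Spearman 0.66; permutation p = 0.00043, adjusted 0.00825), with 0.61 and 0.87 in the 2 series and 0.70 without responder 8 and non-responder 9. Serpina3n did so at r = 0.70 (Spearman 0.72; permutation p = 0.00272, adjusted 0.0272), with 0.57 and 0.79 in the series and 0.71 without the same livers. Serpina6 followed the hormone list at r = 0.75 (Spearman 0.74; permutation p = 0.00055, adjusted 0.00825), with 0.78 and 0.73 in the series and 0.76 without non-responder 3 and responder 10.

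The other 3 relations did not pass in each of these forms. Serpina3g with the interferon genes gave r = 0.74 (Spearman 0.55; adjusted permutation p = 0.0333 and 0.0957), and r fell to 0.40 (adjusted p = 0.396) without non-responders 1 and 4. Within the series it was 0.95 and 0.23. Serpina10 with the interferon genes gave r = 0.61 (Spearman 0.62; adjusted permutation p = 0.0333 and 0.0419), with 0.74 and 0.50 in the series, and 0.54 (adjusted p = 0.184) without those 2 livers. Serpina7 with the acute phase genes gave r = 0.58 (Spearman 0.54; adjusted permutation p = 0.042 and 0.0957), with 0.78 and 0.48 in the series, and 0.57 (adjusted p = 0.152) without responder 8 and non-responder 9. Serpina6 ran against the interferon genes at r = -0.55, which passed by Spearman correlation (-0.68; adjusted permutation p = 0.0319) but not by Pearson (adjusted p = 0.111). Its series values were -0.50 and -0.62, and without non-responders 1 and 4 r was -0.68 (adjusted permutation p = 0.0339).

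The Serpina3g promoter is shown because it holds a match, in capitals, to the STAT motif TTCNNNGAA, which 7.02% of all promoters hold. It is chr12:104235897-104236146 on the plus strand of GRCm38.p6, and the match lies 33 to 25 bases before the start. Serpina11 also holds a match to this motif, 65 to 57 or 51 to 43 bases before the start, depending on the RefSeq start. With the interferon genes Serpina11 gave r = -0.26. The part of the motif in either relation was not tested.
Serpina3g promoter: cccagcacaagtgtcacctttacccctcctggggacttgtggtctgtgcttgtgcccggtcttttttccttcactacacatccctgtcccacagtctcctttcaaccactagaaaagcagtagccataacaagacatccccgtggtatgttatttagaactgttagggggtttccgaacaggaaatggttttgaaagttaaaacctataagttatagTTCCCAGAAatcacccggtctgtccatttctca
The interferon motif searched, GAAANNGAA, which 7.13% of all promoters hold on either strand, had no match in these 250 bases.

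**Figure D5:**
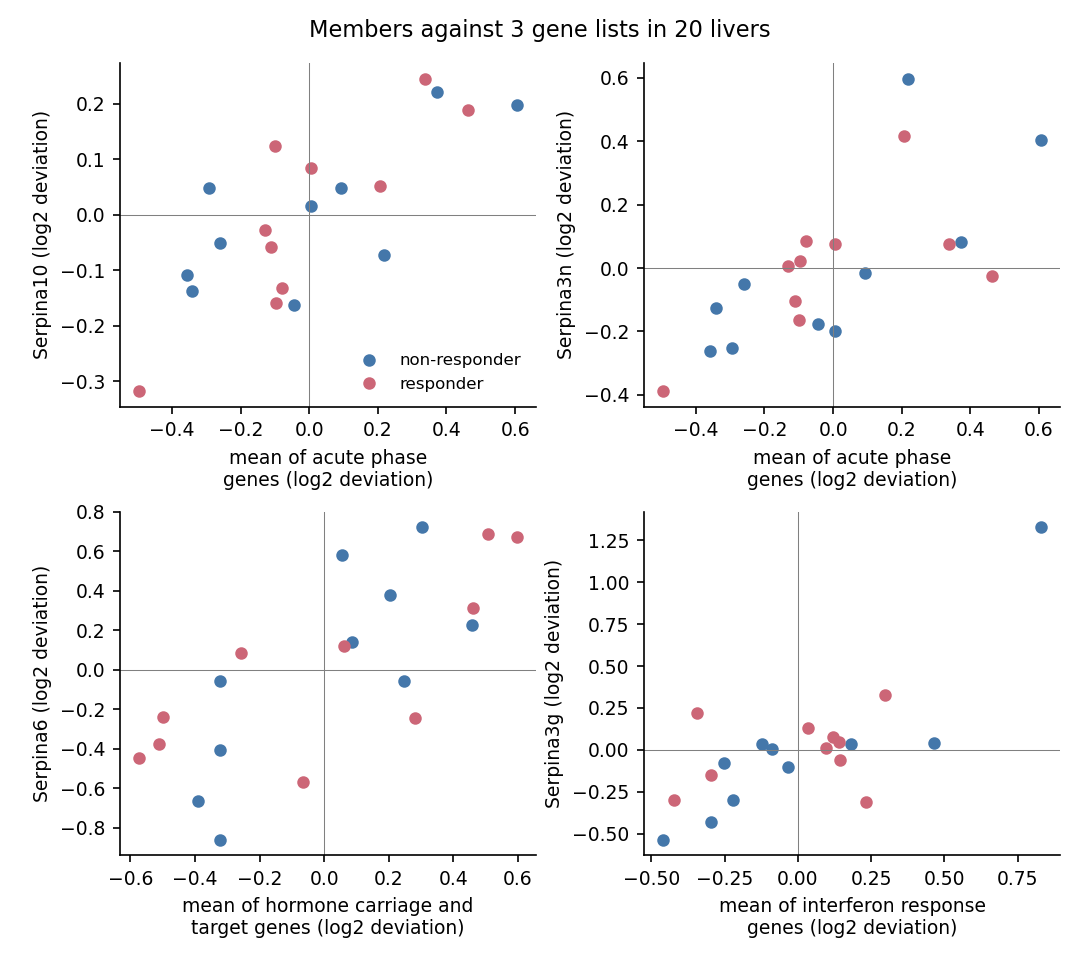
Members (log2 deviation from the mean of their group within their slide series, vertical axes) against the mean of a gene list (same unit, horizontal axes) in 20 livers, blue for non-responders and red for responders. Serpina10 and Serpina3n rise with the acute phase genes (r = 0.77 and 0.70) and Serpina6 with the hormone list (0.75), while in the panel of Serpina3g and the interferon genes 1 non-responder stands alone at the upper right.

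No gene of the 3 lists passed the adjusted threshold between groups. Of 26 acute phase genes 18 were higher and 8 lower in responders, 1 of them at an unadjusted p under 0.05: Itih4, an inter-alpha-inhibitor heavy chain, at 0.26 (SE 0.12; limma adjusted p = 0.620). Of 18 interferon response genes 11 were higher and 7 lower, none at an unadjusted p under 0.05. In the hormone list 10 of 18 were lower and 8 higher, and 3 were lower at an unadjusted p under 0.05: Sgk1, a glucocorticoid-induced kinase, at -0.35 (SE 0.11), and the metallothionein genes Mt2 at -1.43 (SE 0.53) and Mt1 at -0.90 (SE 0.39). Over all genes, 4.25% were called higher and 3.73% lower at an unadjusted p under 0.05 (limma). List medians were 0.04, 0.03 and -0.07, beside -0.0031 over all genes.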

How the data were processed

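Total RNA of 20 mouse liver samples was labelled with Cy3 and hybridised to 1 single-colour Agilent array per sample, per the labels' protocols. The deposited files hold spot intensity on a linear scale from Agilent Feature Extraction. The file headers name version 10.5.1.1 of it, the submitters' processing notes version 9.1. Per the file headers, local background was subtracted and spatial trends removed within each array, with no scaling between arrays. The authors' deposited table of intensity has 33220 rows and column medians between 66.5 and 69.9. Its columns, on a linear scale and uncentred, correlated with their own arrays at 0.954 to 0.962 in log2, and its normalization is unknown (not given in the sources used here).

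Here log2 processed signal was set relative to each array's 75th percentile over spots that are not controls. Outlier-flagged spots were dropped and spots of a probe averaged. A probe stayed if 5 or more arrays of one group had it well above background, and the brightest such probe stood for its gene. That left 26162 probes and 17197 rows. Symbols came from the RefSeq gene table of GRCm38.p6, used for names, gene order and promoters, while probe positions are the mm9 ones of the array annotation.

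The group comparison used limma 3.58.1 (lmFit, eBayes; R 4.3.3) on group plus slide series, with p-values adjusted by Benjamini-Hochberg and called at 0.05. The barcodes of the slides give the slide series, which coincides with scan day. The 20 arrays lay on 13 slides, 3 of them with both groups, so slide as a random block was an alternative. Correlations used 100000 two-sided permutations within group and series. The number of arrays limits the precision. The fit and the correlation test were tested on simulated data. Alternatives were other background corrections, scalings, filters, variances and blocks, each series alone, and each array left out; plain background subtraction was chosen after seeing the data.

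Genes named are the 10 members, all measured genes of the other clade A list, up to 3 genes of smallest unadjusted p from each further list, and those most like a member (8 highest and 4 lowest for Serpina12, 3 highest for each other), without predicted genes, clone names or accessions. The members and the lists were chosen with earlier results of these data known. Lists of immune, cholangiocyte, and stellate and endothelial markers were also measured. Of 9 immune genes well above background on at least 5 arrays in each group, 4 were higher and 5 lower in responders. Cd79a passed the filter through 1 group alone and is not counted. Of 6 cholangiocyte genes 4 were higher and 2 lower, of 10 pancreatic genes 1 and 9, and of 9 hepatocyte genes 6 and 3. Of 10 stellate and endothelial genes 1 was higher and 9 lower. At an unadjusted p under 0.05 (limma), 4 of those 10 were called lower, beside 3.73% of all genes. No gene of these lists passed the adjusted threshold.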

Additional observations from a re-analysis of the deposited data

Results flagged for a closer look

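In 20 measured clade A serpins, 40 groups of 10 livers were searched for a liver far from the rest. The measure was the gap to the nearest liver as a share of the range of the group. Of the 40 groups 2 held such a liver, where chance gives about 1 in 20 groups, so the count is no more than chance gives. Both are the same liver, non-responder 4 of the first slide series. Its Serpina3g signal was 4.35, against 3.06 in the next highest non-responder, and its signal for Serpina3f, the neighbouring gene, was 0.345 against -0.92. The same liver had the highest mean of interferon response genes on any array, 2.59, and the highest mean of immune cell markers, 0.16. The part of those cells in the 2 signals was not tested.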

How the results depend on the processing

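The vaspin difference stayed positive under all 34 alternatives tried, from 0.48 (plain background subtraction, chosen after seeing the data) to 0.92 (second slide series alone), and from 0.65 to 0.80 when each array was left out in turn. All 34 reuse the arrays on which the gene was picked for this difference, so they are a description. For the 9 other serpins, 305 alternative values gave 0 calls, with limma adjusted p from 0.478 to 0.995, and 17 changes of sign. Normexp background correction turned Serpina10 to -0.065, Serpina11 to -0.43, Serpina3k to -0.43, Serpina3m to -0.39 and Serpina3n to -0.40, and moved Serpina6 to -0.72, Serpina3c to -0.57, Serpina3g to -0.56 and Serpina7 to 0.32. Under it the 1st percentile of corrected signal was above 100 on 6 arrays, 4 of them responders, and between 54.4 and 61.7 on the other 14. Omitting the slide series term turned Serpina3k to -0.085 and Serpina3m to -0.042. The first series alone gave -0.0079 for Serpina10 and -0.018 for Serpina3n, and the second -0.018 for Serpina11 and 0.13 for Serpina3c. Leaving out 1 array turned Serpina11 (-0.027 to 0.062; non-responders 4 and 7), Serpina3c (-0.20 to 0.045; responder 3 and non-responder 9) and Serpina3k (-0.024 to 0.072; non-responder 10), moved Serpina3g between -0.26 and -0.08 (without non-responder 4), Serpina6 between -0.33 and -0.13 (without non-responder 10), Serpina3m between 0.03 (without non-responder 10) and 0.10, Serpina3n between 0.07 (without non-responder 10) and 0.18 (without non-responder 3) and Serpina7 between 0.06 (without non-responder 1) and 0.33, and left 1112 to 1674 genes at an unadjusted p under 0.05 and 0 at an adjusted p, as in every other alternative. The count of 1372 became 400 with normexp and 893 with plain subtraction.

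Correlations of vaspin changed sign with Serpina6 in the first series (0.20), with Serpina10 in the second (0.14) or with group means kept (0.29), with Serpina3g in the second series (0.71), with Serpina3m after quantile normalization (-0.26), and with Serpina3n with group means kept (0.14) or without responders 8 and 9 (0.048). The cause was not tested.

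Sample numbers recur in both groups. Same-numbered arrays correlated at a median of 0.28, with a lowest value of -0.18, and 5 of 20 arrays correlated best with their own number. How many would do so by chance was not computed, so these values do not decide whether the numbers are pairs. The main fit did not take them as pairs. With the number as a block the vaspin difference was 0.77, Serpina6 moved to -0.38 (adjusted p = 0.478, limma), Serpina11 turned to -0.0018, and 1830 genes had an unadjusted p under 0.05 with 0 at an adjusted p.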

Other observations

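Vaspin did not correlate with the acute phase genes past the threshold over 20 livers (r = 0.02, Spearman -0.02; permutation p = 0.937, adjusted 0.972 over 30 relations), with r = -0.74 for first-series livers and 0.28 for the second series. Without responder 8 and non-responder 9, the livers with list levels farthest from the median, r was -0.62 (adjusted permutation p = 0.0596). Responder 8 had the highest acute phase level of any array, 5.45, and with -0.97 the second highest vaspin signal.

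Fkbp5, a glucocorticoid-induced gene of the hormone list that Serpina6 followed, averaged -0.23 ± 1.17 among responders (log2 signal, SD, n = 10) against 0.39 ± 0.92 among non-responders (SD, n = 10), which differ by -0.55 (SE 0.46; limma adjusted p = 0.777). This gene was named after its value was seen.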
